A study of Homo sapiens with 95 samples.

Results

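The CDKN2A locus on the short arm of human chromosome 9 holds 4 genes that lie next to each other: CDKN2A, CDKN2B, CDKN2B-AS1 and MTAP. They were chosen by symbol, and all 4 were among the 27978 genes listed for each of the 95 sparse full length (SFL) RNA-seq samples. SFL is a pooled method in which ribosomal RNA is depleted and reads are taken from along whole transcripts. CDKN2A encodes p16INK4a, an inhibitor of the cyclin-dependent kinases CDK4 and CDK6, and, from another first exon and another reading frame, p14ARF, which binds MDM2 and so stabilizes p53. CDKN2B encodes p15INK4b, a second inhibitor of CDK4 and CDK6 that is induced by TGF-beta. CDKN2B-AS1, also called ANRIL, is a long noncoding RNA transcribed from the opposite strand of CDKN2A and CDKN2B that has been linked to Polycomb repression of the locus. MTAP encodes methylthioadenosine phosphorylase, the enzyme that recycles a by-product of polyamine synthesis towards methionine. The locus is silenced in many growing cells, is induced in senescence, and is deleted in many lung cancers, where MTAP is often lost with its neighbours.

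All samples came from AALE, bronchial epithelium of human origin that was immortalized, so every group shared the immortalization. The FAT1 and CDKN2A lines were CRISPR knockouts whose control was GFP, cells given the Cas9 and EGFP plasmid with no guide RNA. The NRF2 (gene symbol NFE2L2), FGFR1, NRG1 and PIK3CA lines carried an overexpressed gene, and their control was HCRED, cells given a vector with the HcRed fluorescent protein. Each of the 8 lines received the solvent DMSO alone or 1 of 3 agents of tobacco smoke. These were a condensate of cigarette smoke (CSC, 24 μg/ml), the polycyclic hydrocarbon benzo(a)pyrene (BaP, 173 μM) and the nitrosamine NNK (490 μM). Each of the 32 combinations of line and treatment had 3 samples, except CSC-treated FGFR1 cells with 2, so a line had 12 samples and FGFR1 had 11. The guide RNAs, and whether a line was a pool or a clone, are not given in the sources used here.

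On GRCh37 the gene models of GENCODE place MTAP at chr9:21802635-21937650 and CDKN2B-AS1 at chr9:21994138-22128102, both on the plus strand. CDKN2A lies at chr9:21967751-21995300 and CDKN2B at chr9:22002902-22009304, both on the minus strand. In these models 593 exonic bases are shared between CDKN2A and CDKN2B-AS1, which is 15.3% of the exonic bases of CDKN2A and 2.9% of those of CDKN2B-AS1. Whether the strand of a read was used in counting is not given in the sources used here, so reads from these bases cannot be assigned to a strand. The counts were made on RefSeq models, for which this overlap was not measured. CDKN2A and CDKN2B are similar in sequence, but only 6 of the 4185 stretches of 75 bases in CDKN2A transcripts also occurred in transcripts of CDKN2B. A count for CDKN2A does not separate the p16INK4a and p14ARF transcripts.

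CDKN2A has a start for each of its products, 20.467 kb apart in RefSeq models on GRCh38.p14, and the CDKN2B start lies 13.981 kb beyond the upstream one. The 250 bases before each start are shown for the 3 protein-coding genes because these neighbours have separate starts and were all called lower in the CDKN2A line, while under the chemicals CDKN2A was called in the opposite direction to CDKN2B and MTAP, before a correction for GC content that left none of these calls. They run 5′ to 3′ along the strand of the gene, and capitals mark GC boxes (GGGCGG on either strand), the sites that SP1 factors bind.

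MTAP, plus strand, chr9:21802386-21802635: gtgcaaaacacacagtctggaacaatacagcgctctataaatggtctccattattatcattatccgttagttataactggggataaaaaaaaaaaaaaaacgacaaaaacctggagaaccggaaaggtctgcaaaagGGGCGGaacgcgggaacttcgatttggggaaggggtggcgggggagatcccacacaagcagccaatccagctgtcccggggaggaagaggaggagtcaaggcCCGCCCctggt
CDKN2A, downstream start (p16INK4a), minus strand, chr9:21974858-21975107: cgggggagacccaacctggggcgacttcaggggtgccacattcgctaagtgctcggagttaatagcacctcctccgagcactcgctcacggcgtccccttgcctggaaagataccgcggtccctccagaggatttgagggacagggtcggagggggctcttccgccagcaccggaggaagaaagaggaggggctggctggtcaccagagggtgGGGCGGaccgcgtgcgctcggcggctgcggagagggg
CDKN2A, upstream start (p14ARF), minus strand, chr9:21995325-21995574: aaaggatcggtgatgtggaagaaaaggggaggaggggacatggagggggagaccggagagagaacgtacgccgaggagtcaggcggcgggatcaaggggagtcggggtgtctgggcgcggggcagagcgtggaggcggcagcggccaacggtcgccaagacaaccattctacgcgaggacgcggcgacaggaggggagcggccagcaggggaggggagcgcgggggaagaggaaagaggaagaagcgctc
CDKN2B, minus strand, chr9:22009306-22009555: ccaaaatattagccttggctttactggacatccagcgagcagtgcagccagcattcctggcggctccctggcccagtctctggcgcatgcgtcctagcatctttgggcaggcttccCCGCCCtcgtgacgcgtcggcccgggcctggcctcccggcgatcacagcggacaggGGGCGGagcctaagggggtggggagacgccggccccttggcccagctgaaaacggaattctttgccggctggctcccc

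The MTAP and CDKN2B stretches each held 2 GC boxes, the stretch before the p16INK4a start held 1 and the one before the p14ARF start held 0, while 42.6% of 34788 stretches of this length before RefSeq starts held at least 1. The core GCGTG of sites for the aryl hydrocarbon receptor, the receptor of BaP, on either strand, had 1 match before each of the CDKN2A starts and 0 before MTAP and CDKN2B, against 32.2% of all stretches. The core of antioxidant response elements (TGACNNNGC on either strand), which NRF2 binds, was in 0 of these 4 stretches and in 10.9% of all. The stretch before CDKN2B-AS1, not shown here, held 2 GC boxes, 1 match to GCGTG and 0 to the antioxidant core. The 4 stretches shown differed in base composition, with a GC content of 66.8% before each CDKN2A start, 66.4% before CDKN2B and 50% before MTAP.

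Between 287446 and 2116383 reads were counted per sample, and 9 libraries held under 500000. DMSO libraries were deeper, with a median of 1051107 reads against 753702 to 836087 under the chemicals. The airway basal cell markers KRT5 and TP63 had reads in all 95 samples, and of 11 markers of other lung cells CD3E had none while COL1A1 and CD68 had reads in at least 94 samples. In each perturbed line the 12 or 11 values of the targeted gene, in CPM (reads of a gene scaled to the size of its library), lay apart from those of its control. In such bulk samples fewer cells with a transcript and less of it per cell cannot be told apart. Each of the 4 locus genes had a read in every sample, with counts per sample of 26 to 212 for CDKN2A, 21 to 165 for CDKN2B, 2 to 36 for CDKN2B-AS1 and 21 to 225 for MTAP. CDKN2B-AS1 was therefore measured least precisely.

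CDKN2A, the gene targeted in the CDKN2A line, was lower there in every treatment, but it was not absent. With DMSO its level was 37.8, 40.0 and 47.8 CPM in the CDKN2A line and 81.2, 99.9 and 79.1 CPM in GFP. With CSC it was 66.8, 50.9 and 54.7 CPM against 119.7, 118 and 98.7 CPM, and with BaP 49.5, 56.5 and 49.1 CPM against 113, 93.3 and 108 CPM. With NNK it was 56.8, 35.1 and 45.0 CPM against 147, 90.5 and 126 CPM. All 12 samples of the CDKN2A line lay below the lowest GFP sample. The share of all genes whose samples lie apart in this way was not computed for the comparisons of lines. Such separations, here and below, are therefore given as values and are no result about the locus genes. Over the 4 treatments the log2 fold change of CDKN2A was -1.16 ± 0.09 (SE, n = 12 against 12), or 44.8% of the GFP level, with an adjusted p of 1.21e-17 (limma, Benjamini-Hochberg over 14383 genes). Here and below, n counts samples of a line, so SE and p do not cover the spread between separately made lines. A CRISPR edit can leave a transcript that is still counted, so the level of CDKN2A says nothing of the protein.

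The other 3 genes of the locus, which the knockout did not name, were lower in the CDKN2A line too. All 4 locus genes were called lower, in a comparison in which 28.3% of all genes tested were called lower and 57.6% were called in either direction. The median log2 fold change was -0.98 over the 4 genes and 0.0014 over all genes tested. The order of the 4 changes was not stable, since CDKN2B-AS1 and CDKN2A differed by less than their errors against GFP, and with the correction for GC content, with HCRED or with the other 7 lines as the control CDKN2A had the lowest value.

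For MTAP, the methionine salvage enzyme, the CDKN2A line had 89.8, 67.7 and 76.7 CPM with DMSO, 96.5, 92.0 and 68.4 CPM with CSC, 76.8, 60.8 and 77.6 CPM with BaP, and 88.9, 74.7 and 60.9 CPM with NNK. GFP had 151, 145 and 148 CPM with DMSO, and its other 9 samples lay between 99.5 and 146 CPM. All 12 samples of the CDKN2A line were below all 12 of GFP, a separation whose share over all genes was not computed. The log2 fold change was -0.80 ± 0.08 (SE), or 57.4% of the GFP level (adjusted p = 7.94e-15, limma).

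For CDKN2B-AS1, the antisense RNA, the CDKN2A line had 12.3, 16.4 and 9.92 CPM with DMSO, where GFP had 32.9, 28.8 and 27.9 CPM. Over all treatments the lowest, median and highest values were 3.91, 11.1 and 20.6 CPM in the CDKN2A line and 16.2, 28.2 and 32.9 CPM in GFP. The groups overlapped under 1 treatment of 4, BaP. The log2 fold change was -1.24 ± 0.18 (SE), or 42.4% of the GFP level (adjusted p = 7.12e-09, limma). In the GENCODE models an exon of CDKN2B-AS1 overlaps CDKN2A, but reads were counted on RefSeq models, whose exon overlap was not measured. Without strand, reads of such an overlap would be counted in either gene or in neither. The part of the overlap in this value was not tested.

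For CDKN2B, the other CDK4 and CDK6 inhibitor, the CDKN2A line had 56.3, 63.6 and 49.6 CPM with DMSO, where GFP had 95.7, 69.1 and 105 CPM. Over all treatments the lowest, median and highest values were 49.5, 56.3 and 63.6 CPM in the CDKN2A line and 58.4, 77.2 and 105 CPM in GFP. Within each treatment the groups did not overlap, and the share of all genes for which this holds was not computed. The difference was the smallest of the 4 genes, with a log2 fold change of -0.49 ± 0.09 (SE), or 71.1% of the GFP level (adjusted p = 1.96e-06, limma).

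**Figure D1:**
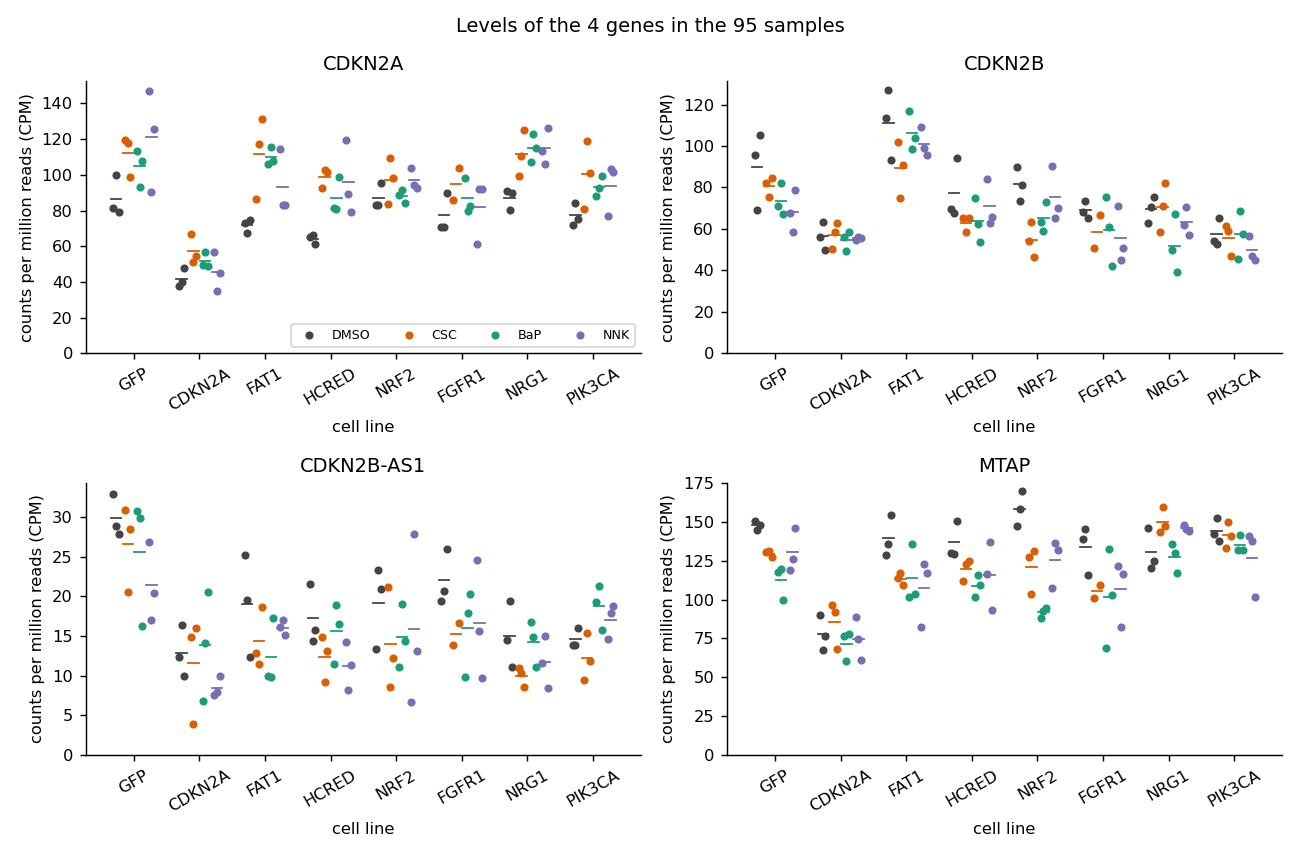
CPM (vertical axis) of each of the 4 genes in all 95 samples, by line (horizontal axis) and treatment (colour), with short bars at the mean of each combination. Averaged over its samples, the CDKN2A line is lowest for CDKN2A and MTAP, the GFP line is highest for CDKN2B-AS1, and the FAT1 line is highest for CDKN2B.

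Against GFP within a single treatment, tested in a fit of all 95 samples, CDKN2A, CDKN2B-AS1 and MTAP were called lower in each of the 4 treatments, where 17.2% (DMSO), 14.5% (CSC), 15.2% (BaP) and 14.2% (NNK) of all genes were called lower. The log2 fold change of CDKN2A was -1.05 with DMSO, -0.96 with CSC, -1.06 with BaP and -1.54 with NNK. CDKN2B was called lower with DMSO only, at -0.69, and its values were -0.44 with CSC, -0.42 with BaP and -0.28 with NNK (adjusted p = 0.0532, 0.0767 and 0.279, limma). These differences between treatments were tested as an interaction of line and treatment, in which 1.66% of all genes and 0 of the 4 locus genes were called. The unadjusted p was 0.082 for CDKN2A, 0.279 for MTAP, 0.286 for CDKN2B and 0.973 for CDKN2B-AS1. With only the 3 and 3 samples given DMSO in the fit, all 4 genes were called lower, where 18.3% of all genes were, and the log2 fold changes were -1.06, -0.70, -1.25 and -0.95 for CDKN2A, CDKN2B, CDKN2B-AS1 and MTAP. The call of CDKN2B with DMSO was lost in 1 of 9 fits without a replicate, at -0.47 (adjusted p = 0.0508, limma).

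How far the 4 genes fell depended on the control. GFP itself differed from HCRED, with CDKN2A higher by 0.31 ± 0.07, CDKN2B by 0.20 ± 0.08 and CDKN2B-AS1 by 0.89 ± 0.15 (log2, SE), in a comparison in which 22.2% of all genes were called higher. Between these control lines 45% of all genes were called in either direction. MTAP differed by 0.11 ± 0.06 and was not called. The call of CDKN2B (adjusted p = 0.0424, limma) was lost without any 1 of the 3 replicate numbers, at 0.18 to 0.22. It was also lost with the correction for GC content and length, at 0.15 (adjusted p = 0.123, limma). Over all alternatives 11 of 64 values of the 4 genes in GFP against HCRED lost a call. With HCRED in place of GFP, a choice made after the values were seen, the CDKN2A line was lower for CDKN2A (-0.84 ± 0.09), MTAP (-0.68 ± 0.07) and CDKN2B (-0.31 ± 0.09), where 27.6% of all genes were called lower. CDKN2B-AS1 was then not called, at -0.35 ± 0.19 with a 95% interval of -0.72 to 0.03 (adjusted p = 0.12, limma). Against the mean of the other 7 lines, chosen after the values were seen as well, all 4 were called lower, at -0.98, -0.31, -0.55 and -0.74 for CDKN2A, CDKN2B, CDKN2B-AS1 and MTAP, where 30.4% of all genes were called lower.

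Most of the tested genes around the locus were also lower in the CDKN2A line. Among the named neighbours in 9p21 and the bands beside it, 7 of 8 tested were called lower than in GFP and 0 higher, where 28.3% of all genes were called lower, with a median log2 fold change of -0.69. They included ELAVL2, an RNA-binding protein of neurons, at -1.76, MLLT3, a subunit of the super elongation complex, at -1.33, HACD4, an enzyme of very long chain fatty acid synthesis, at -1.17, and KLHL9, an adaptor of a CUL3 ubiquitin ligase, at -0.71. Against HCRED, where 27.6% of all genes were called lower, 5 of 8 were called lower and 0 higher, with a median of -0.45.

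The same held along the whole short arm, a description chosen after the values were seen. Of 102 genes on the arm other than the locus genes, whose counts averaged 10 or more, 81 were called lower and 2 higher in the CDKN2A line against GFP, with a median log2 fold change of -0.74. On the other chromosomes 32.8% of 9292 genes were called lower, and the median was -0.01. Against HCRED the counts on the arm were again 81 and 2, with a median of -0.60, and against the other 7 lines 84 and 2, with a median of -0.61. In windows of 10 Mb counted from CDKN2A the medians against GFP were -0.50 (17 genes, -25 to -15 Mb), -0.86 (9 genes, -15 to -5 Mb), -0.94 (15 genes, -5 to 5 Mb), -0.66 (47 genes, 5 to 15 Mb) and -1.47 (14 genes, 15 to 25 Mb).

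The locus genes lay inside the range of the arm. Against GFP, 18 of the 102 arm genes had a lower log2 fold change than CDKN2A, 16 a lower one than CDKN2B-AS1, 46 than MTAP and 69 than CDKN2B. These ranks depended on the control, and against HCRED 28 of the 102 were lower than CDKN2A, 75 than CDKN2B-AS1, 45 than MTAP and 81 than CDKN2B. Against the other 7 lines they were 24, 58, 39 and 78 in the same order. The long arm had a median of -0.38 over 309 genes against GFP and of -0.10 against HCRED. In the other 6 comparisons of lines the median of the short arm lay between -0.07 and 0.12. For each other line against the remaining 7 it lay between -0.01 and 0.21. Those remaining 7 include the CDKN2A line, whose low values on the arm raise these medians. Other chromosomes also had medians away from 0 in the CDKN2A line, and these depended on the control. Against GFP they were 0.54 on chromosome 4, 0.45 on chromosome 22 and -0.56 on chromosome 13, and against the other 7 lines 0.30, 0.15 and -0.36, where chromosomes 10 (-0.43) and 12 (-0.40) lay further from 0. The counts hold no measure of DNA copy number, and the part of the arm in the values of the 4 locus genes was not tested.

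**Figure D2:**
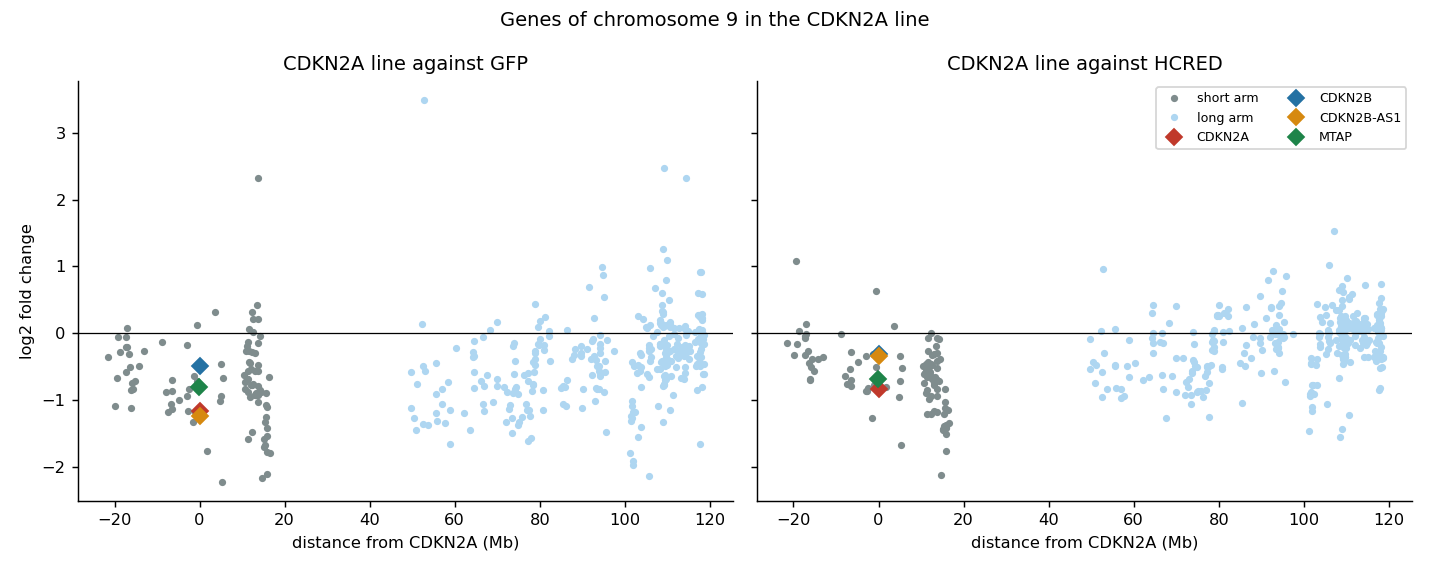
Log2 fold change (vertical axis) of genes on chromosome 9 in the CDKN2A line against GFP (left) and HCRED (right), by distance of the gene start from that of CDKN2A in Mb (horizontal axis). Points are genes whose counts averaged 10 or more and diamonds are the 4 locus genes, which lie among the other short arm genes, whose median is -0.74 on the left and -0.60 on the right.

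The partners of the locus genes were taken from lists drawn from general knowledge. Their counts stand beside 29.4% of all genes called higher and 28.3% called lower in the CDKN2A line against GFP, and 26.5% and 27.6% against HCRED. Of 8 D cyclins, CDK4, CDK6 and retinoblastoma family genes, the direct partners of p16INK4a and p15INK4b, 6 were called lower and 1 higher in the CDKN2A line against GFP. Cyclin D1 (CCND1) rose by 1.92, while CDK6 fell by 1.18, RB1 by 1.07 and its relative RBL1 by 0.62 on the log2 scale. Against HCRED CCND1 was 0.13 higher and not called (adjusted p = 0.0591, limma). CDK6, RB1 and RBL1 were called lower there, at -1.06, -0.50 and -0.68. CDK6, and MCM7 and EZH2 named below, lie on chromosome 7, whose median in the CDKN2A line was -0.38 against GFP and -0.35 against the other 7 lines. Other partners named here or below also lie on chromosomes with medians away from 0. Among them are RB1 on chromosome 13 (-0.56 and -0.36), CDKN1B on chromosome 12 (-0.29 and -0.40) and ENOPH1 on chromosome 4 (0.54 and 0.30). KDM6B, which was lower, lies on chromosome 17, whose medians were above 0 (0.17 and 0.17). The part of the chromosome medians in the values of the partners was not tested.

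Of 17 genes driven by E2F or used in replication, 10 were lower and 4 higher against GFP, where 28.3% and 29.4% of all genes were, with a median of -0.20, and 6 lower and 6 higher against HCRED, with a median of -0.01. They included the helicase subunit MCM7 (-0.83), the activator E2F2 (-0.76) and the ribonucleotide reductase subunit RRM2 (0.83). Against HCRED MCM7 and RRM2 were called in the same direction and E2F2 was not called, at -0.03. Among the other CDK inhibitors, CDKN1B (p27) fell by 0.92, CDKN1C (p57) by 0.77 and CDKN2C (p18) by 0.40, while CDKN1A (p21), a p53 target, rose by 0.22 on the log2 scale against GFP. Against HCRED CDKN1B was called lower at -0.995 and CDKN1A higher at 0.92, while CDKN1C (-0.31) and CDKN2C (-0.14) were not called. CDKN1A did not keep its call against GFP when GC content and transcript length were corrected for (0.05, adjusted p = 0.394, limma).

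In the MDM2 and p53 list, the arm that p14ARF acts on, 3 of 10 genes were called higher and 3 lower against GFP, with a median of 0.04, which is near the 29.4% and 28.3% of all genes, so the list as a whole shows no result. TP53I3 was higher by 1.34 and ZMAT3 by 0.42, both p53 targets, and MDM4, an inhibitor of p53, was lower at -0.63. The apoptosis gene BAX was lower at -0.36. Against HCRED TP53I3 (0.02) and BAX (-0.17) were not called, MDM4 was lower at -0.38 and ZMAT3 was called higher at 0.73.

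Of 12 tested Polycomb genes and other regulators of the locus, 2 were higher and 2 lower against GFP, a smaller share than the 29.4% and 28.3% of all genes, so the members below are given as single values. The methyltransferase EZH2, which silences the locus in growing cells, fell by 0.998, and the demethylase KDM6B, which opposes it, fell by 0.57. ID1, an inhibitor of the E proteins that can activate p16INK4a, rose by 1.56, and the Polycomb ligase RNF2 rose by 0.61 on the log2 scale. Against HCRED EZH2 (-0.40), KDM6B (-0.95) and RNF2 (0.48) were called in the same direction, and ID1 was not called, at 0.24. In the TGF-beta list, the pathway upstream of CDKN2B, 5 of 8 genes were higher and 2 lower against GFP, where 29.4% and 28.3% of all genes were, with a median of 0.68. Against HCRED 4 were higher and 3 lower, with a median of 0.02, and against the other 7 lines 3 and 2, with a median of 0.08. Against GFP MYC was at 1.66, the ligand TGFB1 at 1.43 and the receptor TGFBR2 at 0.67. Against HCRED MYC was at 0.16 and TGFB1 at 0.29, both called higher, but TGFBR2 was called lower at -0.20, the opposite direction.

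Around MTAP, 8 of 12 genes of methionine salvage, polyamine synthesis and PRMT5 were higher against GFP and 1 lower, where 29.4% and 28.3% of all genes were, with a median of 0.27. Against HCRED 6 were higher and 1 lower, with a median of 0.19. Ornithine decarboxylase (ODC1), which starts polyamine synthesis, rose by 1.55, the salvage enzyme ENOPH1 by 0.83, the decarboxylase AMD1 by 0.62 and the methionine adenosyltransferase MAT2A by 0.45 on the log2 scale. The direction of these 4 was the same against HCRED, where they were called higher at 1.24, 0.50, 0.27 and 0.18. In the same line 5 of 8 basal epithelial markers were called lower and 2 higher against GFP, with KRT5 at -0.44, KRT14 at -0.37, CDH1 at -0.58 and EPCAM at 0.77, and of 11 markers of other lung cells only 2 were tested, of which COL1A1 was called higher at 0.67. The part of these markers in the other values was not tested.

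In the other lines fewer of the locus genes were called. The FAT1 line was compared with the same 12 GFP samples as the CDKN2A line, and the 4 overexpression lines shared the 12 HCRED samples. In the FAT1 line CDKN2B was higher, with lowest, median and highest values of 75.1, 100.5 and 127 CPM against 58.4, 77.2 and 105 CPM in GFP, so that the lines overlapped. Its log2 fold change was 0.38 ± 0.08 (SE, adjusted p = 4.50e-05, limma), in a comparison in which 25% of all genes were called higher. CDKN2B-AS1 was lower there by -0.74 ± 0.15, where 23.9% of all genes were called lower. This depended on the control, since GFP was 0.85 above the other 7 lines for CDKN2B-AS1. Against the other 7 lines FAT1 was at -0.01 for CDKN2B-AS1 (adjusted p = 0.949, limma) and at 0.69 for CDKN2B. CDKN2A was called higher in that comparison, at 0.15 (adjusted p = 0.0176, limma), but the other 7 lines include the CDKN2A line. Against GFP CDKN2A (-0.14 ± 0.08) and MTAP (-0.13 ± 0.07) were not called, so the direction of CDKN2A in FAT1 depended on the control. With the correction for GC content and length CDKN2A was called lower in the FAT1 line, at -0.32 ± 0.08, where 25.6% of all genes were called lower, and it was called lower without replicate 3, at -0.23. MTAP was called lower there without the libraries under 500000 reads, at -0.16.

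In the NRG1 line, which overexpresses a ligand of the ERBB receptors, CDKN2A was 0.34 ± 0.07 and MTAP 0.22 ± 0.07 higher than in HCRED, where 5.86% of all genes were called higher. The call of MTAP was lost, among other fits, without replicate 1 (0.15) or replicate 2 (0.24) of each group, and without the CSC (0.16), BaP (0.19) or NNK (0.18) samples. Over all alternatives 6 of 64 values of the 4 genes in NRG1 against HCRED lost a call. CDKN2A ranged from 80.2 to 126 CPM there and from 61.0 to 119.6 CPM in HCRED, so the lines overlapped. In the PIK3CA line, which overexpresses a catalytic subunit of PI3 kinase, CDKN2B was lower by -0.36 ± 0.09, where 13.8% of all genes were called lower, and MTAP was higher by 0.18 ± 0.06, where 14.0% were called higher, a call lost without replicate 1 (0.13) or replicate 2 (0.17), and without the CSC (0.16) or BaP (0.14) samples. In the NRF2 line, with 21.6% of all genes called, and in the FGFR1 line, with 13.5%, 0 of the 4 locus genes were called. The widest of the 8 intervals in these 2 lines was that of CDKN2B-AS1 in NRF2 cells, at -0.26 to 0.44, so for each gene the change seen in the CDKN2A line against GFP lay outside the interval. The change of CDKN2B in the CDKN2A line against HCRED (-0.31) lay inside the interval of CDKN2B in FGFR1 cells, at -0.36 to -0.0027. The change of CDKN2B-AS1 (-0.35) lay outside both of its intervals, but its own interval of -0.72 to 0.03 overlaps them. These lines were all compared with the same HCRED samples, and a difference between them was not tested.

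**Figure D3:**
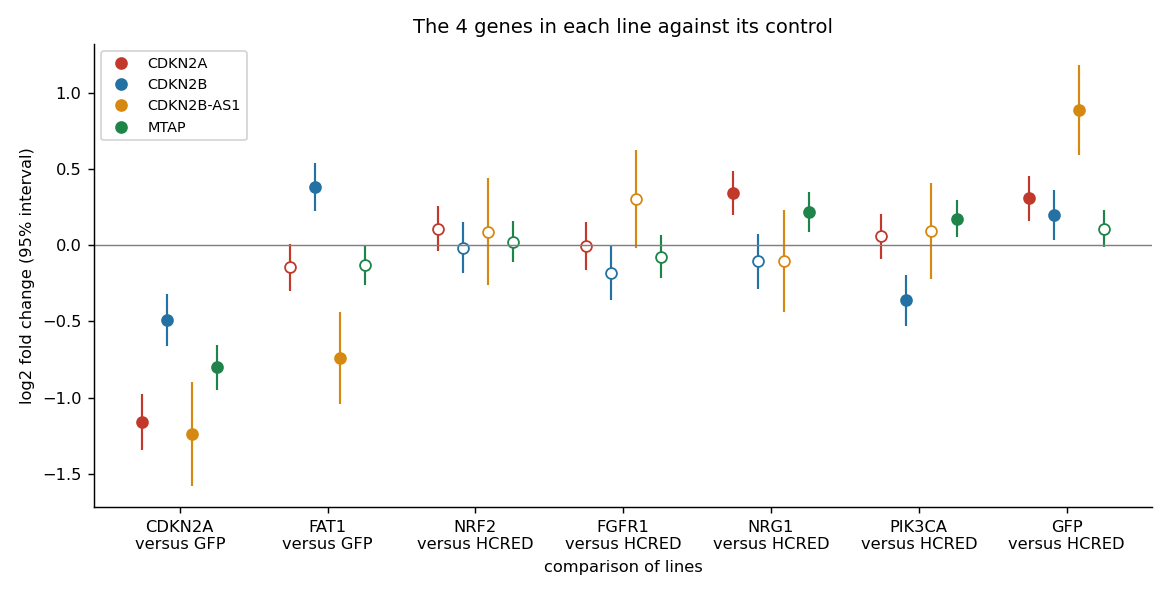
Log2 fold change with its 95% interval (vertical axis) of the 4 genes in each comparison of lines over the 4 treatments (horizontal axis). Filled points passed an adjusted p of 0.05 in limma and open points did not; all 4 genes are filled and below 0 in the CDKN2A line, and none is filled in the NRF2 and FGFR1 lines.

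Ordered by mean log2 CPM, the lines differed by more than the spread of replicates at few steps. The pooled SD within combinations was 0.19 for CDKN2A and 0.18 for MTAP, 0.21 for CDKN2B and 0.40 for CDKN2B-AS1. For CDKN2A the lowest line was CDKN2A, and the next, FGFR1, was 0.77 above it. From there HCRED, PIK3CA, NRF2, FAT1, GFP and NRG1 followed in steps of at most 0.14. For MTAP the CDKN2A line was 0.50 below FGFR1, and FAT1, HCRED, NRF2, GFP, PIK3CA and NRG1 followed in steps of at most 0.09. For CDKN2B the order from the lowest was PIK3CA, CDKN2A, FGFR1, NRG1, HCRED, NRF2 and GFP, with steps of at most 0.18, and FAT1 was 0.38 above GFP. For CDKN2B-AS1 it was CDKN2A, NRG1, HCRED, FAT1, NRF2, PIK3CA and FGFR1, with steps of at most 0.16, and GFP was 0.53 above FGFR1.

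The 3 chemicals were compared with DMSO over the 8 lines. CDKN2A was called higher under each chemical, and CDKN2B and MTAP were called lower under each, as was CDKN2B-AS1 with CSC and NNK. CDKN2A had a lowest, median and highest value of 37.8, 75.1 and 99.9 CPM over the 24 DMSO samples. With CSC these were 50.9, 101 and 131 CPM, with BaP 49.1, 92.9 and 123 CPM, and with NNK 35.1, 92.5 and 147 CPM, so all groups overlapped. Within single lines the 3 or 2 samples given a chemical could all lie above the 3 DMSO samples. This was so in 4 of 8 lines with CSC, 5 with BaP and 3 with NNK. The share of all genes that lie apart in this way was not computed, so these counts are no result about CDKN2A. The log2 fold change of CDKN2A was 0.40 ± 0.05 with CSC, 0.31 ± 0.05 with BaP and 0.30 ± 0.06 with NNK (SE, adjusted p = 1.97e-10, 2.34e-07 and 6.86e-06, limma). Of all genes tested 27.2%, 26.4% and 25.9% were called higher under CSC, BaP and NNK.

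MTAP had a median of 141 CPM with DMSO, 125 CPM with CSC, 106 CPM with BaP and 120.1 CPM with NNK, and its log2 fold changes were -0.16 ± 0.04, -0.28 ± 0.05 and -0.17 ± 0.05. CDKN2B changed by -0.20 ± 0.06, -0.19 ± 0.06 and -0.17 ± 0.06 in the same order, and CDKN2B-AS1 by -0.37 ± 0.11, -0.17 ± 0.11 and -0.31 ± 0.12. All of these were called except CDKN2B-AS1 with BaP (adjusted p = 0.191, limma), where 28.4%, 25.1% and 25.8% of all genes were called lower under CSC, BaP and NNK. Several of these calls were lost when fewer samples entered the fit. CDKN2B was not called with BaP without replicate 3 (-0.13), nor with NNK without replicate 2 (-0.15) or replicate 3 (-0.12). CDKN2B-AS1 was not called with CSC without replicate 2 (-0.20), and with NNK it was not called without any 1 of the 3 replicate numbers (-0.34 to -0.27), without the HCRED line (-0.28) or without the FGFR1 line (-0.27).

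The DMSO libraries also differed from the others in how the level of a gene varied with its GC content. For each library the median deviation of genes with a transcript GC content of at least 56.7% minus that of genes with at most 39.9%, called the GC contrast, lay between -0.89 and -0.22 in the 24 DMSO libraries. It lay between 0.02 and 0.50 with CSC, -0.21 and 0.53 with BaP and -0.15 and 0.54 with NNK, so no DMSO library overlapped the others. The longest transcript of CDKN2A has a GC content of 58.3%, while that of CDKN2B has 44.2%, of MTAP 39.1% and of CDKN2B-AS1 37.4%. When each library's trend on GC content and transcript length was removed, a correction chosen after the values were seen, 0 of the 4 locus genes were called under any chemical, where 34.9%, 25.7% and 17.7% of all genes still were under CSC, BaP and NNK. The log2 fold changes of CDKN2A were then 0.09 (95% interval -0.02 to 0.19) with CSC, 0.01 (-0.09 to 0.10) with BaP and 0.03 (-0.08 to 0.14) with NNK. Those of the other 3 genes lay between -0.10 and 0.07. Whether the GC contrast is itself an effect of the chemicals or of library making cannot be told apart here, since it divides the libraries in the same way as DMSO.

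**Figure D4:**
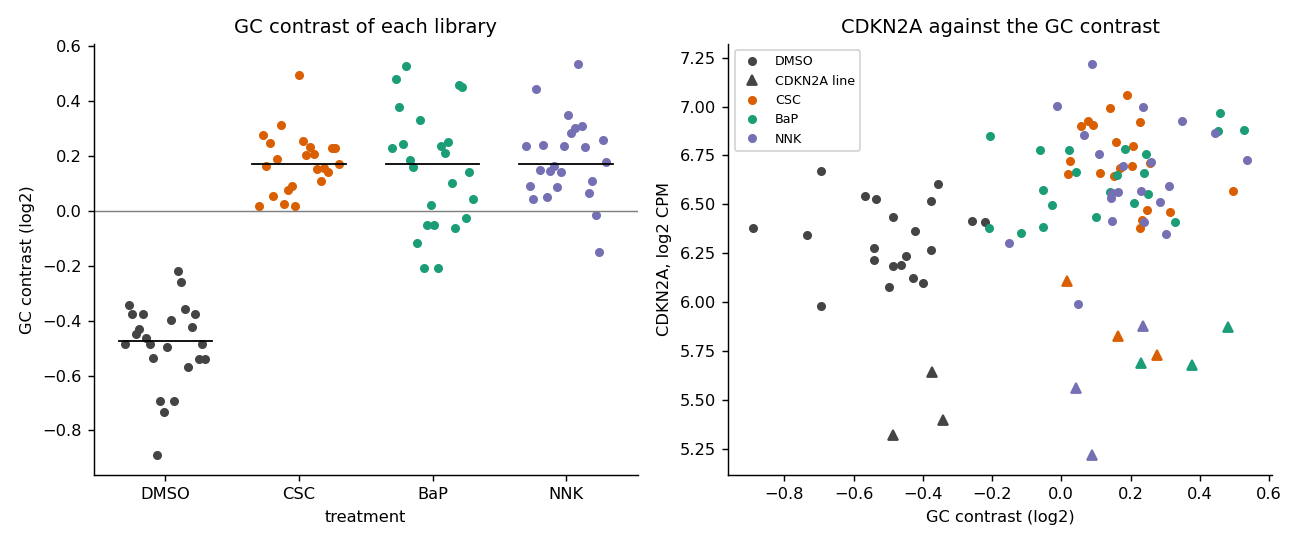
Left, GC contrast (log2, vertical axis) of each library by treatment, with the median as a line. Right, log2 CPM of CDKN2A against the GC contrast, with triangles for the CDKN2A line. The DMSO libraries lie between -0.89 and -0.22 and all others from -0.21 up, and the 12 points of the CDKN2A line lie between 35.1 and 66.8 CPM on the linear scale.

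**Figure D5:**
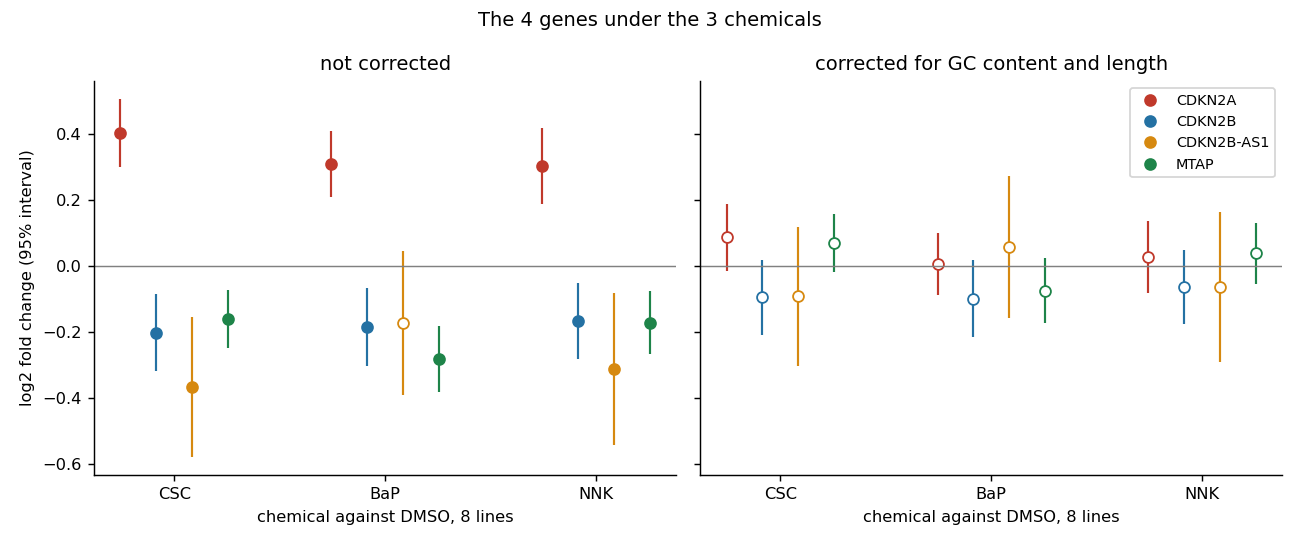
Log2 fold change with its 95% interval (vertical axis) of the 4 genes under each chemical against DMSO over the 8 lines (horizontal axis), without (left) and with (right) the correction for GC content and transcript length. Filled points passed an adjusted p of 0.05 in limma: 11 of 12 on the left and 0 of 12 on the right.

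For the CDKN2A line against GFP the correction changed no call of the 4 genes. The GC contrast of its 12 libraries lay between -0.49 and 0.48, and that of the GFP libraries between -0.89 and 0.23. With the correction the log2 fold changes in the CDKN2A line against GFP were -1.35 ± 0.09 for CDKN2A, -0.44 ± 0.09 for CDKN2B, -1.14 ± 0.17 for CDKN2B-AS1 and -0.72 ± 0.07 for MTAP, and all 4 were still called lower, where 30.2% of all genes were.

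Within single lines, 4 genes in 24 contrasts of a chemical with DMSO gave 96 values, of which 9 were called. In these contrasts 4.37% to 23.2% of all genes were called, so the count is no result about the locus genes. CDKN2A was called higher with CSC in the GFP (0.39), FAT1 (0.66) and HCRED (0.61) lines, where 11.2%, 6.35% and 12.2% of all genes were called higher. It was called higher with BaP in FAT1 (0.63, against 8.26% of all genes) and with NNK in GFP (0.51, against 8.78%) and HCRED (0.61, against 8.24%). MTAP was called lower with BaP in GFP (-0.38) and NRF2, where 4.98% and 3.57% of all genes were, and CDKN2B with CSC in NRF2 (-0.60), where 3.02% were. With the correction 1 of the 96 was called. The share of all genes called in these corrected contrasts was not computed, so the count is no result about the locus genes. The value called was MTAP with BaP in the NRF2 line. There MTAP had 88.1, 92.8 and 94.7 CPM with BaP and 147, 158 and 169.7 CPM with DMSO, which do not overlap. The log2 fold change was -0.78 ± 0.13 before and -0.63 after the correction (adjusted p = 2.33e-06 and 1.82e-04, limma). Over all lines the response of MTAP to BaP in single lines lay between -0.78 and -0.0033 before correction, and the test of differences in response between the 8 lines, which called 2.20% of all genes, did not call MTAP (unadjusted p = 0.018, adjusted p = 0.23, limma). The other 3 locus genes were not called in that test either.

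Under CSC some genes of the same pathways kept their calls with the correction. CDKN1A (p21) rose by 0.97, and by 0.64 with the correction, and MYC, which represses CDKN2B, rose by 1.18, and by 1.15 with the correction. The proliferation marker MKI67 fell by 0.48 and, with the correction, by 0.51, and CCNA2 (cyclin A2) fell by 0.49 and by 0.32. Of 17 E2F and replication genes 10 were called lower and 4 higher under CSC, where 28.4% and 27.2% of all genes were, and with the correction 14 were called lower and 0 higher, where 20.1% of all genes were called lower, with a median of -0.19. The p53 targets BAX (0.44) and TP53I3 (0.30) and E2F1 (0.55), the transcription factor held by the retinoblastoma protein, lost their calls with the correction, at 0.10, -0.07 and 0.10. ID1 rose by 1.52 and, with the correction, by 1.19. The polyamine enzyme SRM (0.49) was at -0.02 with the correction and was no longer called. Of 8 tested neighbours of the locus, 6 were lower and 1 higher under CSC before the correction, where 28.4% of all genes were lower, and 3 lower and 0 higher after it, where 20.1% were.

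The 4 genes were set side by side over the 32 combination means of log2 CPM, as a description, since the points share libraries, lines and the GC contrast. Pearson's r was 0.64 between CDKN2A and MTAP, 0.41 between CDKN2B-AS1 and MTAP and 0.24 between CDKN2A and CDKN2B. Without the 4 means of the CDKN2A line, these were -0.04, 0.14 and -0.07 in the same order. The genes most alike to each member, given next, were found over all 32 means with the CDKN2A line included. Their r values without that line were not computed. Of 10061 other genes, those most like CDKN2A were GBA2 (r = 0.92), SCNN1A (0.86), SLC25A51 (0.86), TMBIM6 (0.85) and PDXK (0.85), of which GBA2 and SLC25A51 lie on the short arm of chromosome 9. Those most like MTAP were CDK6 (0.87), NUP58 (0.87), TOMM5 (0.86), HAUS6 (0.84) and XPO4 (0.84), of which TOMM5 and HAUS6 lie on that arm. Those most like CDKN2B included ESYT2 (0.85), DBT (0.82), PLEKHA1 (0.82) and RNF144B (0.82), and those most like CDKN2B-AS1 were IQGAP1 (0.86), TRPM7 (0.84), EZH2 (0.84), CSNK1G1 (0.84) and TOP2A (0.83). Of the 50 genes most like each, 11 lay on the short arm for CDKN2A, 11 for MTAP, 3 for CDKN2B-AS1 and 0 for CDKN2B, where 105 of the 10061 genes lie.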

How the data were processed

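SFL libraries were read as single-end reads. Per the labels and methods, the authors trimmed adapters with cutadapt 1.12, checked reads with FastQC 0.11.5, aligned them to hg19 with STAR 2.5.2b and assigned reads to RefSeq gene models by featureCounts. The deposited values are raw counts, 1 whole number per gene and sample, for 95 samples grouped by their labels. Counts were scaled with TMM factors (edgeR 4.0.16, R 4.3.3) and compared with limma 3.58.1 on voom-transformed values (2-sided, Benjamini-Hochberg over all genes fitted, threshold 0.05), keeping genes that averaged more than 1 count over the samples fitted. Comparisons of lines had treatment, and comparisons of chemicals had line, as a covariate. Log2 CPM used a prior count of 2. The correction for GC content and length removed a loess trend (span 0.3) per library, over GENCODE models on GRCh37 that matched 24309 symbols (86.9%). Totals of 287446 to 2116383 reads limit the precision. The study calls the samples of a combination biological replicates, and whether each was a separate culture is not given in the sources used here, so p-values measure the spread between these samples. The 4 members, the gene lists and the tests were chosen with earlier results of these data known. Named genes are the members, the targeted genes, up to 4 genes per list with the largest change among called genes averaging 10 counts or more, and the 5 genes most alike to each member. Some genes that this rule names are not reported here. The fits were repeated with the quasi-likelihood test of edgeR, with DESeq2 1.42.0, with its size factors, with other filters, a replicate block or all samples, and without single replicates, treatments or lines. The correction, the other controls and leaving out shallow libraries were added after the data were seen. The fits were tested on simulated data.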

Additional observations from a re-analysis of the deposited data

How the results depend on the processing

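Over all alternatives the 4 locus genes gave 856 values, of which 794 kept their direction and side of the threshold, 41 lost a call, 3 gained one and 18 changed direction. In the CDKN2A line against GFP 71 of 72 values kept their call, and CDKN2B-AS1 with HCRED as the control did not (-0.35). Replicate numbers did not pair the samples, with a mean correlation of same-numbered samples between -0.03 and 0.12 over 48 comparisons and 0 comparisons in which every pair was over 0.1. With the replicate block the CDKN2A line against GFP gave 8276 called genes and -1.15, -0.50, -1.24 and -0.79 for CDKN2A, CDKN2B, CDKN2B-AS1 and MTAP, and the block changed 0 of 52 calls of these genes.

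After correcting for GC and length, the number called fell to 4738 under CSC, 3473 under BaP and 2382 under NNK, and CDKN2A was at 0.086, 0.0053 and 0.026, CDKN2B at -0.097, -0.10 and -0.065, CDKN2B-AS1 at -0.093, 0.056 and -0.065, and MTAP at 0.068, -0.076 and 0.037, in that order. In both interaction tests it left 93 genes (CDKN2A line) and 194 (8 lines), where DESeq2 called 50 and 152, and DESeq2 called 3402 genes in the CDKN2A line with DMSO. With no filter on low counts NNK gave 11531 genes. Without the HCRED or the FGFR1 line CDKN2B-AS1 under NNK was at -0.28 and -0.27 and lost its call. Without DMSO samples NRG1 gave 907 genes and MTAP in NRF2 was at -0.049. CDKN2B in NRF2 was at 0.041 without CSC samples and at 0.010 with the correction. CDKN2A in FGFR1 was at 0.0055 without CSC and 0.065 without NNK samples, and CDKN2B-AS1 in PIK3CA at -0.0022 without NNK samples. The cause of these changes was not tested.

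Without 1 replicate at a time, called genes ranged from 2008 to 2255 (NRF2), 1034 to 1294 (FGFR1), 720 to 1105 (NRG1), 77 to 143 (interaction, CDKN2A line) and 84 to 275 (interaction, 8 lines), and calls of the locus genes within single treatments and lines from 17 to 20. Fewer samples enter these fits. Values of CDKN2A ranged from -0.10 to 0.042 in FGFR1 and from -0.020 to 0.16 in PIK3CA. Those of CDKN2B ranged from -0.047 to 0.027 in NRF2, -0.24 to 0.026 in NRG1, -0.23 to -0.13 under BaP and -0.24 to -0.12 under NNK, and with DMSO alone from -0.98 to -0.47 in the CDKN2A line. CDKN2B-AS1 ranged from -0.059 to 0.29 in NRF2, -0.27 to 0.029 in NRG1, -0.046 to 0.19 in PIK3CA, -0.49 to -0.20 under CSC and -0.34 to -0.27 under NNK, and MTAP from -0.016 to 0.085 in NRF2. CDKN2B-AS1, with a mean count of 15.2, is limited most by depth.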
